A study of Mus musculus with 7 samples.

Results

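The 28 genes described here mark the nerve supply and the neural crest derivatives of the face and teeth. By role they were 10 genes of Schwann cells and their precursors, 3 of pigment cells, 7 of neuronal structure, 5 neurogenic transcription factors, and 3 of catecholamine synthesis and neurotrophic signalling. The members were given as a list of names, out of 20665 autosomal protein-coding genes. For each gene, accessible sites were counted from ATAC-seq, an assay that uses a transposase to cut and label open chromatin.

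All 7 libraries came from mice, and 4 of them belonged to replicated groups. At embryonic day 11.5, ectoderm peeled off the first pharyngeal arches with Dispase II gave 2 libraries. Sox2+ cells of the lower incisor at postnatal day 2 gave 2 libraries. These cells, which the labels call DESC, were sorted from the dissociated labial cervical loop of Sox2-GFP mice, where GFP follows the promoter of Sox2. Of the same postnatal age, 1 library each was made from the entire lower incisor, the lower first molar and the upper first molar. No genotype is given for the ectoderm and the whole teeth. The labels do not say whether replicates came from separate animals or how many animals were pooled, so agreement within a group may be technical.

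Neural crest cells leave the dorsal neural tube, enter the pharyngeal arches, and give rise to Schwann cells, melanocytes, and, together with the placodes of the head ectoderm, the sensory neurons of the cranial ganglia. SOX10 and FOXD3 act early in this lineage, EGR2 drives myelination, MITF drives the pigment programme, and the neurogenins start sensory neurogenesis. In a tooth the cells of nerve and pigment are a minority beside epithelium and neural crest mesenchyme. In bulk chromatin a smaller number of cells and a lower accessibility per cell cannot be told apart.

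The promoter stretches of 5 of the genes are shown because their peak patterns cover the range seen across the libraries. They come from RefSeq on GRCm38.p6, run 5′ to 3′ on the strand of the gene, and lie before a RefSeq start, and capitals mark each CG dinucleotide. All but the last Mitf stretch lie outside the gene model. The Pou4f1 stretch (chr14:104468119-104468249, minus strand) lay under a peak in ectoderm, overlapped one in part in teeth, and had none in either Sox2+ library. The Th stretch (chr7:142899996-142900245, minus strand) lay under a peak in ectoderm alone. The first Mitf stretch (chr6:97806808-97807001, plus strand) belonged to a start with a peak in all 7 libraries, and the last one (chr6:97991533-97991782, plus strand, inside the gene) to a start with none. The Dct stretch (chr14:118052247-118052496, minus strand) and the S100b stretch (chr10:76253586-76253835, plus strand) belonged to starts with peaks mainly in postnatal libraries.
Pou4f1: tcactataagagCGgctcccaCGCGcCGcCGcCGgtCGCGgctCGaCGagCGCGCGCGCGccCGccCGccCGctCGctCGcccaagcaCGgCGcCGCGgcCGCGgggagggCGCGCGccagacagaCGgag
Th: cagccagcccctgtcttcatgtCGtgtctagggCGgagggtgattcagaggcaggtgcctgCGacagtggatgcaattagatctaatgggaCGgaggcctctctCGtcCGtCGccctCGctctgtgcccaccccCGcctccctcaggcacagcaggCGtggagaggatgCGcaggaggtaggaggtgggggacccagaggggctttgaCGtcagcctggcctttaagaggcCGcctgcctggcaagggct
Mitf, first start: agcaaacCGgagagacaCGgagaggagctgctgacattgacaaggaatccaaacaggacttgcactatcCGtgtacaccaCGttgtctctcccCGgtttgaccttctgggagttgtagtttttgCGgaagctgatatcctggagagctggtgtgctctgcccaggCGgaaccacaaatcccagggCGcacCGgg
Mitf, last start: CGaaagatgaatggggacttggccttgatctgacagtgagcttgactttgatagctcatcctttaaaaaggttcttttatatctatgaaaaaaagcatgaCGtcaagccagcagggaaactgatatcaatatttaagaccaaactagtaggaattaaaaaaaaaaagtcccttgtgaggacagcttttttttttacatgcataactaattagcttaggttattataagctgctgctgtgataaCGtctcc
Dct: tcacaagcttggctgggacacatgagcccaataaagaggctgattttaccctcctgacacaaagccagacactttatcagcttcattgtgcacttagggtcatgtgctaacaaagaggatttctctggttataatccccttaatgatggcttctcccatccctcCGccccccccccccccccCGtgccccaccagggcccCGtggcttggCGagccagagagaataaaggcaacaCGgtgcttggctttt
S100b: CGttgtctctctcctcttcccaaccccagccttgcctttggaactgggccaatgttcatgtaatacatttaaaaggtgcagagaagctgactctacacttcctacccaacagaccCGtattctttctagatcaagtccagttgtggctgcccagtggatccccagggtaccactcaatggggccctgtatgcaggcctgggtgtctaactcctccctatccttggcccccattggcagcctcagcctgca
The Pou4f1 stretch held 30 CG dinucleotides in 131 bases, the densest of the 6. The first Mitf stretch held 9 in 194 bases, and the last held 3 in 250. The Th stretch held 13, the Dct stretch 5 and the S100b stretch 2, each in 250 bases. The members thus ranged from a CG-dense promoter to promoters almost without CG.

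Peak lists carry no read counts, so the depth of each library is unknown. The ectoderm lists held 82461 and 50792 peaks, the Sox2+ lists 42606 and 39017, and the tooth lists 63040 to 70000. Results are therefore given on the full lists and on lists of equal length, the 38000 autosomal peaks of lowest p in each library. A signal is the authors' area under the significance curve of a peak, not normalized between libraries, and a rank is the position of a peak by p among these 38000, with rank 1 the lowest p. Over 15 epithelial genes, a peak summit lay within 1 kb of a gene end in 11 and 12 genes in ectoderm, 13 and 13 in Sox2+ cells, and 8 to 13 in teeth at equal length. Over 15 genes of neural crest mesenchyme these counts were 6 and 6, 10 and 9, and 9 to 10. The gene-end rule does not see starts further inside a gene model. Trp63, a defining epithelial gene, had no summit within 1 kb of a gene end in any library. Krt5, Cdh1 and Perp had one in every library. Pdgfra and Runx2, which are mesenchymal and skeletal genes, had one in both Sox2+ libraries and all 3 teeth but in neither ectoderm library, and Prrx1 of the same list had one in both ectoderm libraries and in neither Sox2+ library nor any tooth. Of 15 endothelial genes 5 and 5, 4 and 6, and 2 to 3 had one, and of 14 blood and immune genes 3 and 3, 5 and 5, and 3 to 4. Ptprc and Pecam1, which define leukocytes and endothelium, had none in any library, whereas Spi1, Coro1a and Eng of the same lists had one in all 7. Tyrobp and Runx1 had one in both Sox2+ libraries and neither ectoderm library. The part of mesenchymal cells in the results on the Sox2+ libraries was not tested.

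The share of the 28 genes with a gene-end peak lay below the share of all genes in 6 of 7 full lists, a difference that was not tested. In ectoderm, 21 and 16 of the 28 genes had a gene-end peak, beside 64.6% and 61.5% of all genes. In Sox2+ cells 11 and 12 had one, beside 56.2% and 55%. The incisor had 13, beside 58.6%, the lower molar 15, beside 60.1%, and the upper molar 16, beside 60%. As shares of the 28, the ectoderm libraries stood at 75% and 57.1%, the Sox2+ libraries at 39.3% and 42.9%, and the teeth at 46.4% to 57.1%. At equal length the counts were 16 and 13 in ectoderm (all genes 56.6% and 58.3%), 11 and 12 in Sox2+ cells (54.9% and 54.8%), and 9, 10 and 12 in the incisor, lower molar and upper molar (52.6%, 53% and 53.1%). The 2 ectoderm counts stayed above the 2 Sox2+ counts at both lengths, with a gap of 1 gene at equal length.

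**Figure D1:**
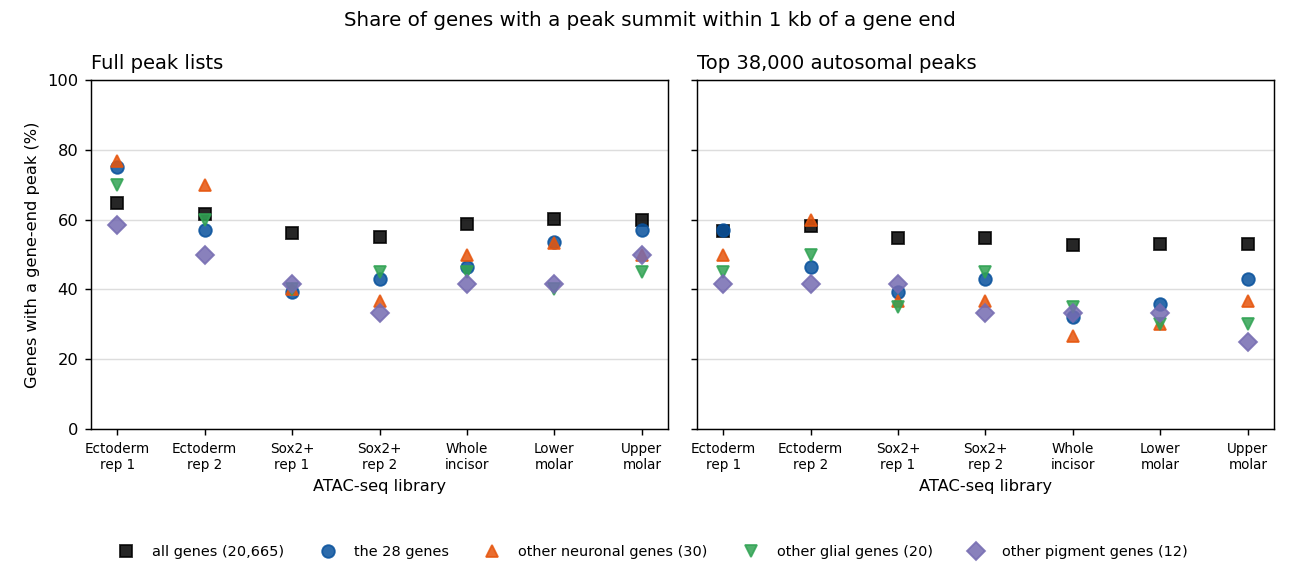
Share of genes, in percent, with a peak summit within 1 kb of a gene end in each of the 7 libraries, for the 28 genes and for all 20665 autosomal genes, in full lists and in lists of 38000 peaks. Members range from 39.3% to 75% in full lists, and the first ectoderm library is the only one in which they exceed all genes by more than 10 points.

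A constant set of 10 genes had a gene-end peak in all 7 full lists (35.7% of the members, beside 50.3% of all genes). These were Erbb3, Mbp and Pou3f1 of glia, and all 3 pigment genes Mitf, Dct and Pmel. The others were the neuronal Tubb3, Elavl4 and Snap25, and the receptor gene Ret. The Pmel peaks lay nearer to another gene, Rab5b. A further 6 genes had none in any full list, beside 31.2% of all genes. They were Sox10, Egr2, Pmp22, Cdh19, Neurod1 and Neurog2. The other 12 genes had a gene-end peak in 1 to 6 lists, and are the ones that differed between libraries. At equal length 7 genes had one in all 7 libraries (46.5% of all genes) and 10 in none (36.3%).

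**Figure D2:**
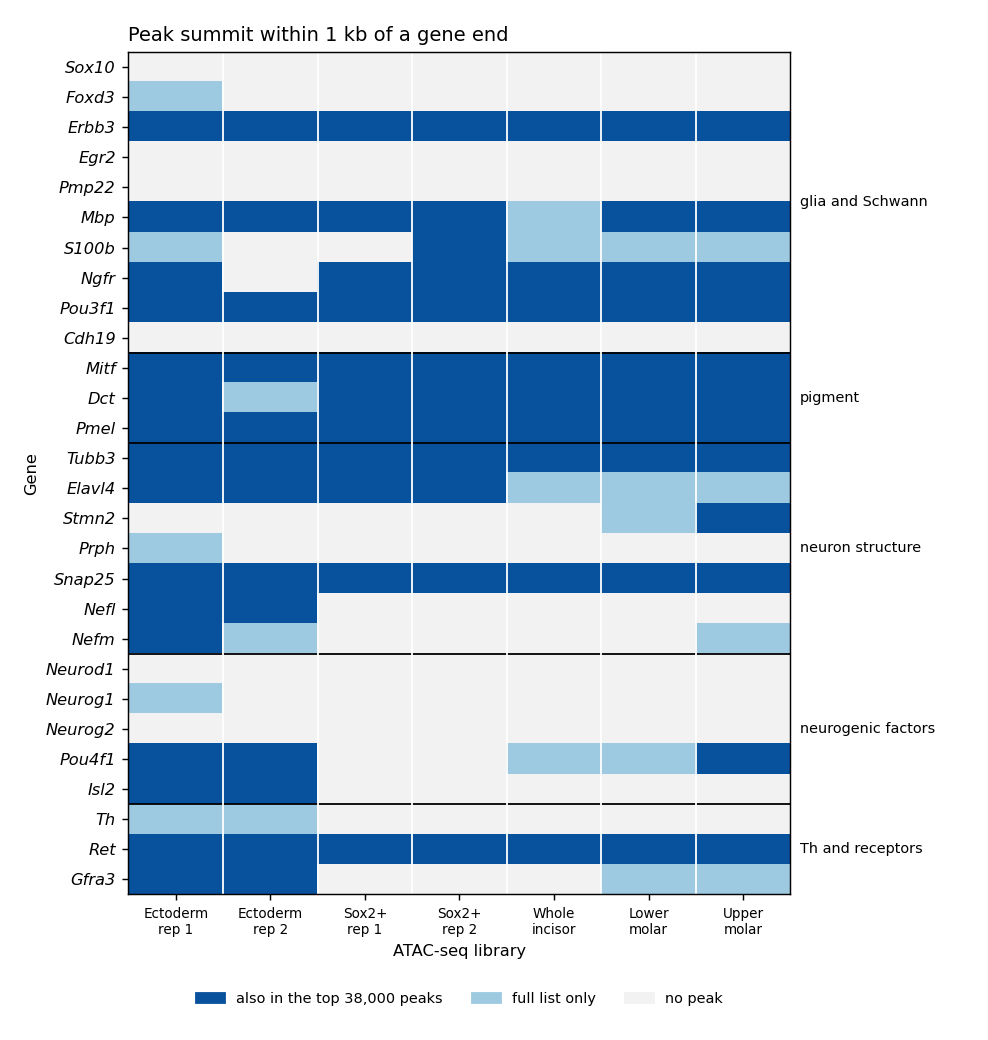
Map of gene-end peaks for the 28 genes (rows, by role) in the 7 libraries (columns), with a different fill for peaks among the 38000 of lowest p and for peaks in the full list only. Nefl, Isl2 and Th are filled in the 2 ectoderm columns alone, and the rows of Sox10, Egr2, Pmp22, Cdh19, Neurod1 and Neurog2 are empty.

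Neuronal genes made up most of the members open at a gene end in both ectoderm libraries and neither Sox2+ library. There were 6 such genes among 28 (21.4%), beside 6.01% of all genes: Nefl, Nefm, Pou4f1, Isl2, Th and Gfra3. At equal length there were 4 (14.3%, beside 3.45%): Nefl, Pou4f1, Isl2 and Gfra3. No member had the reverse pattern at either length, beside 0.823% of all genes in full lists and 1.45% at equal length. Without ectoderm replicate 1 the 6 genes stayed at 6 and the reverse count was 1, Ngfr. Without ectoderm replicate 2 the first count was 9, with Foxd3, Prph and Neurog1 added. With 2 libraries against 2, the smallest two-sided exact permutation p is 0.333, so no difference between these groups was tested.

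By role, the neurogenic transcription factors had the plainest contrast as a sum, most of it from Isl2, Pou4f1 and Neurog2. Summed over the 5 genes, peaks inside or within 25 kb numbered 26 and 20 in ectoderm, 5 and 2 in Sox2+ cells, and 6, 9 and 8 in the incisor, lower molar and upper molar. At equal length the sums were 12 and 14, 4 and 2, and 3, 3 and 3. The summed ectoderm counts lay above those of all other libraries at both lengths. In the 4 replicated libraries these peaks formed 27 regions, and 14 of them (51.9%, beside 22.2% of all regions) were in both ectoderm and neither Sox2+ library, 12 of those with no peak in any tooth. At equal length this held for 5 of 16 regions (31.2%, beside 17.1%), 4 of those with no tooth peak. None was in both Sox2+ libraries and neither ectoderm library. Shares with no tooth peak were not computed over all regions. Isl2 alone gave 13 and 10 of the ectoderm peaks, and 7 and 6 at equal length. Neurog1 did not share the contrast, with 1 and 0 peaks in ectoderm, 1 and 0 in Sox2+ cells and 3 in each molar. At equal length Neurog1 had 0 peaks and Neurod1 had 1 in every library.

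Pou4f1 encodes a POU homeodomain factor of sensory neurons, also known as BRN3A. Its gene-end peak had a signal of 1647 and 1193 in ectoderm, at ranks 15442 and 14190. It was in neither Sox2+ list, and had a signal of 278 in the incisor, 524 in the lower molar and 514 in the upper molar, where only the last reached the 38000 (rank 32295). The peaks covered the RefSeq start in all 5 libraries. The ectoderm peaks, which ended at 104468384 and 104468419, covered the whole CG-dense stretch printed above, and the tooth peaks, which ended at 104468161 to 104468170, only the part nearest to the start. A stronger region 3.89 kb beyond the same end, on chromosome 14 from 104471573 to 104472445, had ectoderm signals of 2172 and 1898 (ranks 11170 and 10091). It was in neither Sox2+ list nor the incisor, and had 295 and 289 in the lower and upper molar. Pou4f1 was the one member with a gene-end peak in the incisor and in neither Sox2+ library (3.57%, beside 2.75% of all genes), and at equal length no member was (0.682%).

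Isl2 encodes a LIM homeodomain factor of sensory and motor neurons. Its window held 13 and 10 peaks in ectoderm, 2 and 1 in Sox2+ cells, and 2, 2 and 1 in teeth. Summits within 1 kb of its gene ends were in ectoderm alone, with signals of 613 and 293 at the lower-coordinate end and of 2232 and 2114 near the higher one. The latter peaks had summits 997 bp from the gene end, just inside the limit of 1 kb. The region they belonged to, from 55544768 to 55547299, also held peaks with summits further inside the gene in the first Sox2+ library (373), the incisor (332), the lower molar (486) and the upper molar (322). At equal length the ectoderm-only status of Isl2 rests on these summits. The RefSeq start of Isl2 lies 2.47 kb inside the gene model, and there the pattern was different. A region on chromosome 9 from 55540301 to 55541414 had a signal of 2770 and 2365 in ectoderm (ranks 3758 and 5095), of 718 and 959 in Sox2+ cells (ranks 13647 and 7462), and of 508 in the incisor (rank 35733), with no peak in either molar. Isl2 was thus open at its start in ectoderm, Sox2+ cells and incisor, and what set ectoderm apart was 6 further regions, 3 of them inside Scaper, the next gene.

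Neurog2, a proneural bHLH factor, had no gene-end peak. Its 25 kb window held 4 peaks in each ectoderm library, 1 and 0 in the Sox2+ libraries, and 1 in each tooth. A region 4.38 kb beyond its higher-coordinate end, on chromosome 3 from 127639675 to 127640362, was in both ectoderm lists alone, with signals of 1404 and 671 (ranks 12987 and 21054). A region inside the gene had signals of 1648 and 1192 in ectoderm, 480 in the first Sox2+ library, none in the second, and 380, 555 and 642 in the teeth. Neurog1, its paralogue in cranial sensory neurogenesis, had a gene-end peak in the first ectoderm library alone, with a signal of 215 near the threshold of the list. Neurod1, which acts after the neurogenins, had no gene-end peak but a region inside the gene in all 7 libraries, with signals of 1293 and 708 in ectoderm, 283 and 218 in Sox2+ cells, and 295, 384 and 617 in teeth. Its 1 region in ectoderm alone, inside Cerkl, had 290 and 239.

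**Figure D3:**
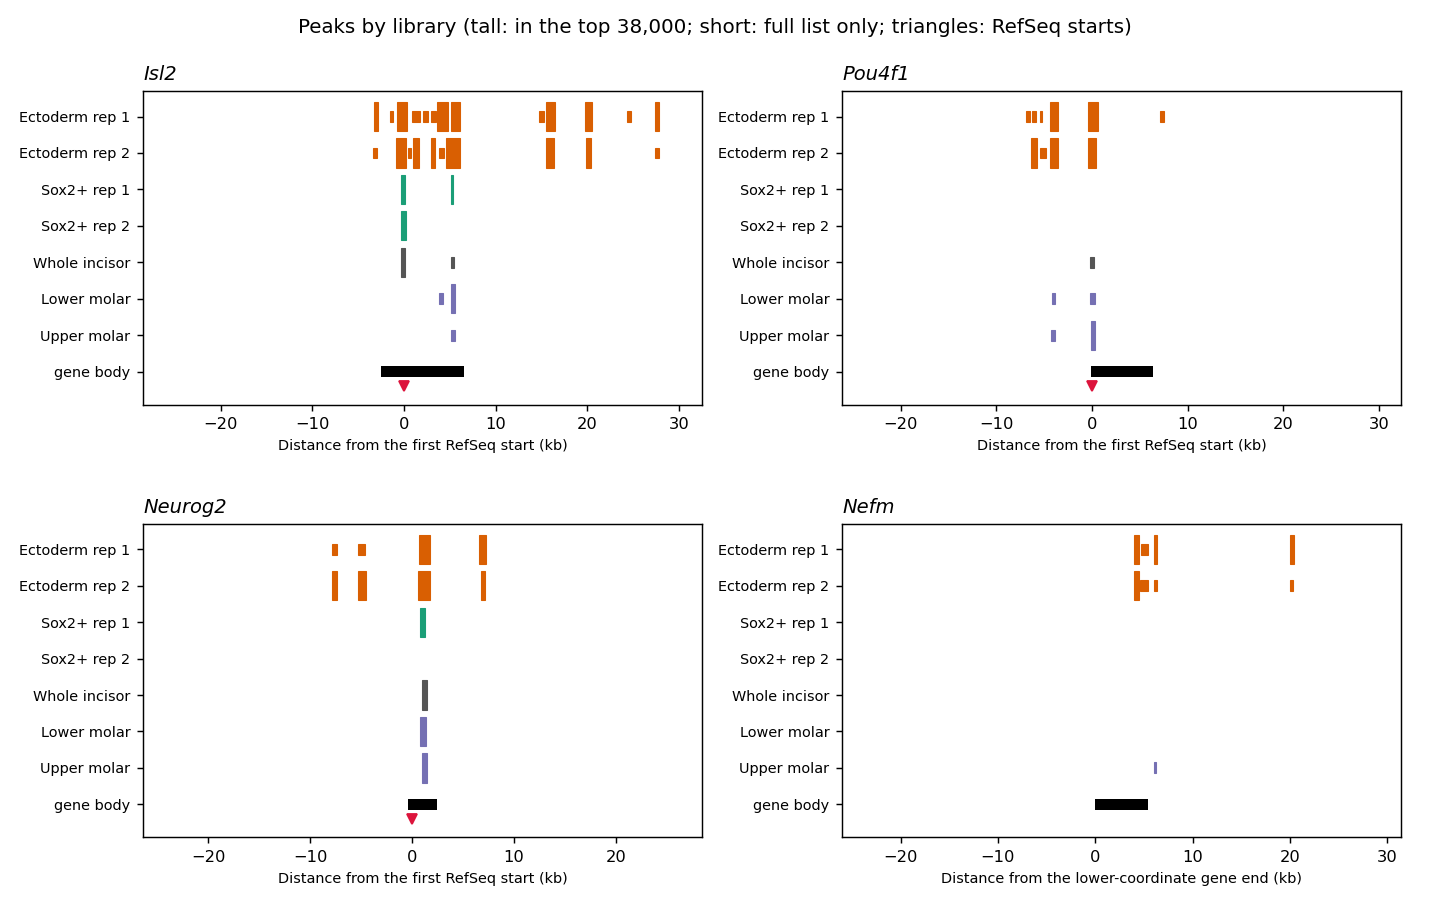
Peaks around 4 neuronal genes in the 7 libraries, by distance in kb from the RefSeq start (for Nefm, from the lower-coordinate gene end); tall bars are peaks among the 38000 of lowest p and short bars are in the full list only. The ectoderm rows hold most bars at Isl2, Pou4f1 and Neurog2, and the Isl2 start is also barred in both Sox2+ rows and the incisor.

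Of the genes of neuronal structure, the neurofilament genes were split between tissues and the rest were mostly shared. Nefl, the light neurofilament chain, had a single region in its whole window, on chromosome 14 from 68083703 to 68085377 over its lower-coordinate end. Its signals were 2026 and 1494 in ectoderm (ranks 29455 and 24269), and the other 5 libraries had no peak there. Nefm, the medium chain, is its neighbour on the same chromosome and had 4 regions in both ectoderm and neither Sox2+ library. One of them, 1.23 kb inside the gene, had signals of 693 and 534 and no peak elsewhere. Another, 0.731 kb outside, had 632 and 306 in ectoderm and 257 in the upper molar. Prph, the intermediate filament of peripheral neurons, had a gene-end peak in the first ectoderm library alone (signal 235).

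Snap25, a synaptic SNARE protein, had a gene-end peak in all 7 libraries and 2 regions in ectoderm alone of the replicated groups. The stronger, on chromosome 2 from 136712096 to 136712962, had signals of 1364 and 1067 (ranks 19621 and 16143). Its summits were 1097 and 1101 bp from the gene end, just outside the limit. Tubb3, the neuronal beta-tubulin, was open at its start in all 7 libraries, with signals of 1688 and 974 in ectoderm, 810 and 1115 in Sox2+ cells, and 2030, 2684 and 2508 in teeth. A Tubb3 region 1.30 kb inside the gene was in neither ectoderm list, and had 872 and 802 in Sox2+ cells and 1527, 2253 and 2108 in teeth. The neuronal label of a gene therefore did not fix where it was open. Elavl4, an RNA-binding protein of neurons also known as HuD, had signals of 4094 and 3355 at its gene-end in ectoderm (ranks 3283 and 4351), and of 615 and 575 in Sox2+ cells (ranks 25144 and 27984). Its peaks in the teeth, at 432, 436 and 638, were outside the 38000. Stmn2, a stathmin of growing axons, had a gene-end peak in the lower and upper molar alone (signals 262 and 628).

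Th and the receptor genes differed from one another. Th encodes tyrosine hydroxylase, the rate-limiting enzyme of catecholamine synthesis. Its start was covered in ectoderm alone, with low signals of 469 and 259, and neither reached the 38000. A region 1.79 kb upstream was in all 7 libraries. A region 3.04 kb upstream, on chromosome 7 from 142902588 to 142903472, was in neither ectoderm list. It had signals of 1211 and 1246 in Sox2+ cells (ranks 8546 and 7012) and of 1025, 1655 and 1751 in the teeth (ranks 13850, 5970 and 5286). A second such region, 22.8 kb beyond the other end, had 642 and 605 in Sox2+ cells and 613 to 762 in teeth. The Th locus thus held regions of both kinds.

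Gfra3, the receptor subunit for artemin, had gene-end signals of 1138 and 826 in ectoderm (ranks 25020 and 22580), no peak in Sox2+ cells or the incisor, and 378 and 369 in the lower and upper molar. Gfra3 and Stmn2 were the 2 members open at a gene end in both molars and not in the incisor (7.14%, beside 2.41% of all genes). At equal length Mbp was the 1 such member (3.57%, beside 2.06%). Ret, the tyrosine kinase that signals with the GFRA subunits, was open in all 7 libraries. Its gene-end signals were 2647 and 2095 in ectoderm (ranks 9256 and 8974), 271 and 457 in Sox2+ cells (ranks 26871 and 23291), and 545, 1003 and 883 in teeth (ranks 34417, 28474 and 23934). Ret was thus open at a gene end in all libraries, whereas Gfra3 was not. Of the other subunit genes, Gfra2 was open in all 7 libraries at both lengths. Gfra1 was open in every full list but that of the first Sox2+ library. At equal length Gfra1 was open in both ectoderm libraries and the second Sox2+ library, and in no tooth.

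Glial genes held regions of both kinds. Of 80 glial regions in the 4 replicated libraries, 11 (13.8%, beside 22.2% of all regions) were in both ectoderm and neither Sox2+ library, and 7 (8.75%, beside 7.44%) the reverse. At equal length each count was 8 of 51 (15.7%, beside 17.1% and 13.5%). In full lists all 7 of the Sox2+ regions had a peak in every tooth, and at equal length 2 of the 8. The same share over all such regions was not computed. Cdh19, a cadherin of Schwann cell precursors, had no peak within 25 kb in any library. Foxd3 had 2 peaks in the first ectoderm library and 1 in the second, and none in the other 5, and none of these was among the 38000.

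Sox10, the defining transcription factor of neural crest glia, had no gene-end peak. Its 25 kb window held 3 and 2 peaks in the ectoderm libraries, 3 and 4 in the Sox2+ ones, and 6, 5 and 6 in teeth. A region 13.5 kb away, on chromosome 15 from 79140835 to 79142016 and inside Polr2f, was in all 7 libraries. Its signals were 1720 and 1215 in ectoderm, 247 and 584 in Sox2+ cells, and 1102 to 1144 in teeth. A region 23.4 kb away, from 79131003 to 79131940 and inside Micall1, was in neither ectoderm list. It had 435 and 704 in Sox2+ cells and 1055, 692 and 467 in teeth. Both lay inside other genes, so their assignment to Sox10 rests on distance alone.

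Pmp22, a protein of peripheral myelin also made in other tissues, resembled Sox10. The first of its 4 RefSeq starts was covered in no library, and the last, 3.82 kb further, in all 7. Signals at the last start were 325 and 465 in ectoderm, 296 and 528 in Sox2+ cells, and 1340, 1189 and 1206 in teeth. A region 13.7 kb before the gene, on chromosome 11 from 63114906 to 63115700, was in neither ectoderm list and had 514 and 871 in Sox2+ cells and 2027, 1023 and 1029 in teeth. A second region, 5.75 kb before the gene, had 788 and 304 in Sox2+ cells and 1247, 722 and 431 in teeth. Both regions were therefore postnatal in these lists.

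Egr2, also known as KROX20, had no gene-end peak, and all 5 of its RefSeq starts lie more than 1 kb inside the gene model. The last 4 starts share a region that was in all 7 libraries at ranks from 3004 to 8962. Its signals were 2386 and 2796 in ectoderm, 1487 and 1801 in Sox2+ cells, and 2377 to 2615 in teeth. Erbb3, the neuregulin receptor of Schwann cells, had gene-end signals of 4615 and 4466 in ectoderm (ranks 7471 and 3019), 968 and 734 in Sox2+ cells (ranks 18820 and 24863), and 503, 1642 and 1281 in teeth. An Erbb3 region 23.3 kb away, nearer to Rps26, had 717 and 537 in ectoderm, 339 in the upper molar and no peak elsewhere. Mbp, myelin basic protein, had the most peaks of any member: 27 and 14 in ectoderm, 9 and 10 in Sox2+ cells, and 13, 20 and 16 in teeth. At equal length these were 12 and 10, 9 and 10, and 8, 13 and 11, so its ectoderm and Sox2+ counts met. The Mbp gene model spans 110.5 kb, and peak counts were not adjusted for gene length. No RefSeq start of Mbp was in the promoter table, so its gene-end peak was not placed on a start. Of its regions 7 were in both ectoderm and neither Sox2+ library, and the one best placed by p, inside Zfp236, had 1124 and 706 and no peak elsewhere. The 1 region of the reverse kind, 47.7 kb inside Mbp, had 308 and 467 in Sox2+ cells and 1160, 650 and 298 in teeth. Pou3f1, a POU factor of promyelinating Schwann cells, had a gene-end peak in every library, with signals of 2475 and 2076 in ectoderm, 668 and 1050 in Sox2+ cells, and 1225, 1018 and 868 in teeth. A weak region 13.96 kb away, nearer to Utp11, was in ectoderm alone, with 561 and 235.

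S100b, a calcium-binding protein of glia, was open at its start in the second Sox2+ library (signal 235) and in the teeth (218, 316 and 240), and the first Sox2+ library had no peak there. Its gene-end peaks in the first ectoderm library lay at the other end of the gene. A region 5.54 kb before the start, on chromosome 10 from 76247608 to 76248991, was far stronger. It was in neither ectoderm list, and had 1619 and 1332 in Sox2+ cells (ranks 9932 and 12434) and 2311, 826 and 1621 in teeth. A region 14.1 kb away, nearer to Prmt2, was in ectoderm alone, with 907 and 658. Ngfr, the low-affinity neurotrophin receptor p75, had a peak over its start in all 7 libraries. In the second ectoderm library its summit lay 1356 bp from the gene end, so the gene-end count missed it. An Ngfr region 7.84 kb from the gene was in neither ectoderm list, and had 589 and 376 in Sox2+ cells and 618, 1089 and 1122 in teeth. Another, 9.39 kb inside the gene, had 1444 and 1006 in ectoderm, none in Sox2+ cells, and 245, 226 and 494 in teeth.

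All 3 pigment genes had a gene-end peak in the 7 full lists, and at equal length Dct lacked one in the second ectoderm library. The Mitf peaks lay at the first of its 3 RefSeq starts, and those of Pmel lay nearer to another gene, Rab5b. Mitf, the master regulator of melanocytes, also acts in other lineages from other starts. Its first start had signals of 3117 and 2531 in ectoderm (ranks 1329 and 3351), 911 and 1214 in Sox2+ cells (ranks 3568 and 3883), and 1669 to 1834 in teeth. Its second start was covered in the first ectoderm library and both molars, and its last start, 185 kb from the first, in none. Of its internal regions, 2 were in ectoderm alone: one from 97869237 to 97870277 on chromosome 6, with 1783 and 969, and one from 97918014 to 97919039, with 2187 and 1086.

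Mitf had 10 and 3 peaks in ectoderm, 2 and 3 in Sox2+ cells, and 12, 12 and 13 in teeth. It was 1 of 3 members, with Sox10 and Pmp22, that had more peaks in each tooth than in each of the other 4 libraries (10.7%, beside 7.52% of all genes). At equal length Mitf alone did so, with 3 and 3, 2 and 3, and 7, 7 and 8 peaks (3.57%, beside 2.08%). A region 26.1 kb inside the gene, from 97832732 to 97833563, had 696 in the second Sox2+ library, 826 in the incisor, and 2004 and 1785 in the molars (ranks 5572 and 9824). A region from 97821792 to 97822189 was in the teeth alone, with 441, 1004 and 912. Other internal regions of Mitf were mixed, such as the one from 97848149 to 97848608, which was in the first ectoderm library, the second Sox2+ library and all 3 teeth.

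Dct, dopachrome tautomerase, makes melanin precursors. Its start had a signal of 302 in the first ectoderm library and none in the second, 1037 and 371 in Sox2+ cells (ranks 12059 and 29297), and 871, 1404 and 1192 in teeth (ranks 17979, 10999 and 18825). The gene-end peak of the second ectoderm library lay in another region, 0.896 kb inside the gene, with a signal of 361. A region 17.8 kb before the start, on chromosome 14 from 118069471 to 118070717, was in all 7 libraries. It had 539 and 287 in ectoderm, 1886 and 908 in Sox2+ cells, and 1676, 3098 and 3124 in teeth. Pmel, a melanosome fibril protein, lies beside Rab5b, a gene of endocytosis. All 7 of its gene-end peaks lay 87 to 150 bp from Rab5b and 483 to 546 bp from Pmel, and Pmel was the only 1 of 22 members with a gene-end peak to which this applied. Pmel peaks are therefore not read as a pigment signal. Its 3 regions in both ectoderm and neither Sox2+ library lay inside Dgka. The strongest, on chromosome 10 from 128742221 to 128743322, had signals of 1021 and 1240 in ectoderm (ranks 32770 and 21882), and of 609, 1274 and 1073 in the incisor, lower molar and upper molar.

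**Figure D4:**
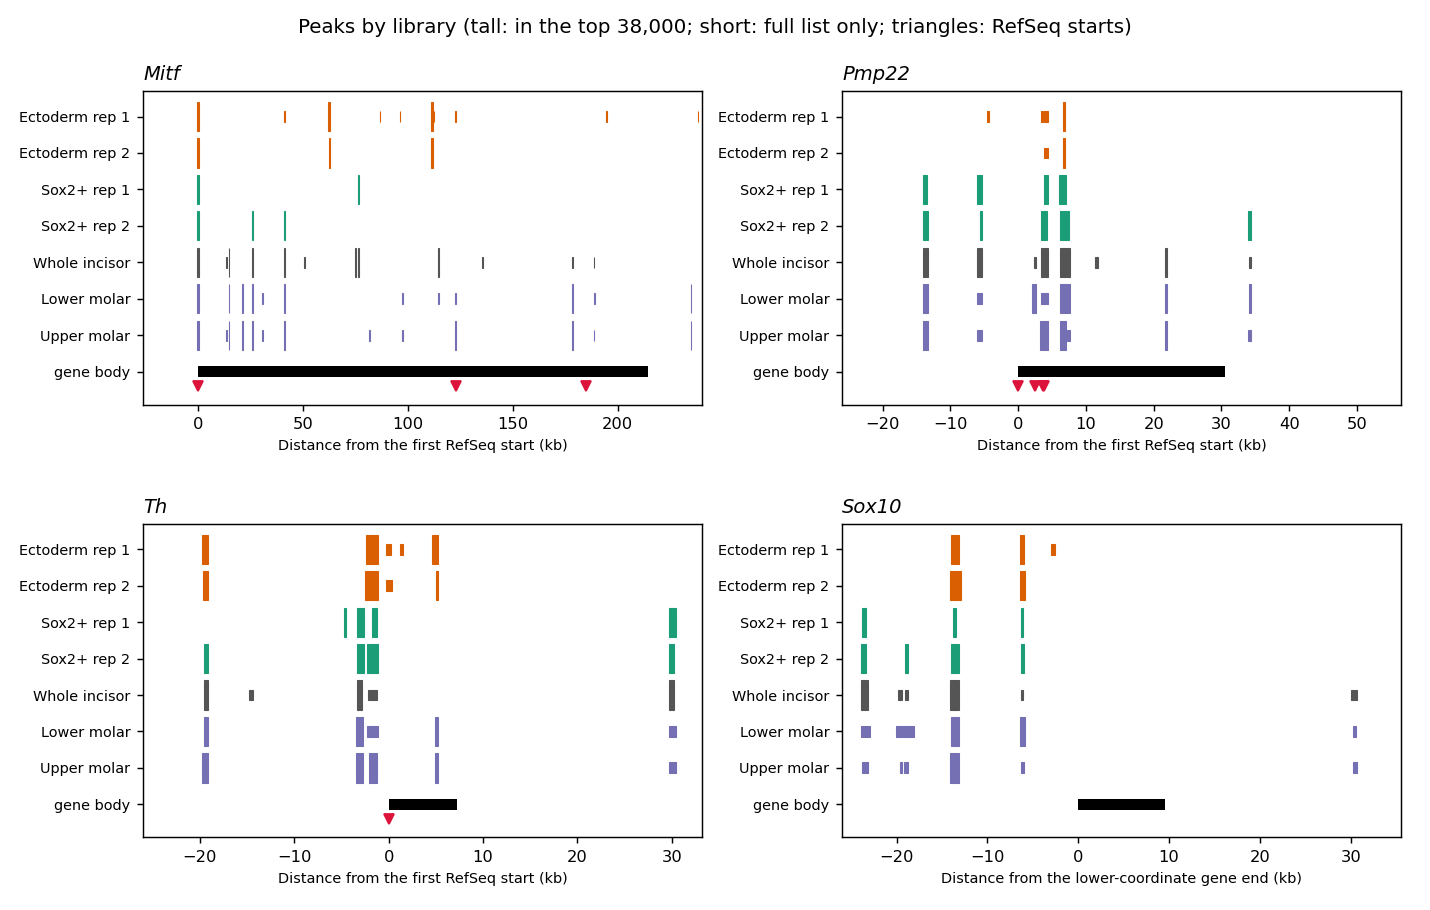
Peaks around Mitf, Pmp22, Th and Sox10 in the 7 libraries, by distance in kb from the first RefSeq start (for Sox10, from the lower-coordinate gene end), with tall bars for peaks among the 38000 of lowest p. Mitf holds bars in the 3 tooth rows that the other rows lack, and Th, Pmp22 and Sox10 each have a bar in Sox2+ and tooth rows with none in ectoderm.

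Across all members, windows of 25 kb gave 161 and 96 peaks in ectoderm, 72 and 69 in Sox2+ cells, and 109, 120 and 113 in teeth. At equal length the sums were 79 and 73, 64 and 69, and 66, 72 and 72, so the gap narrowed. Both ectoderm libraries had more peaks than both Sox2+ libraries at 11 of 28 genes (39.3%, beside 35.3% of all genes), and the reverse held at none (3.62%). Without ectoderm replicate 2 the 11 became 21, and without ectoderm replicate 1 the reverse became 5. At equal length these were 7 genes (25%, beside 17.9%) and 5 (17.9%, beside 15.2%). The 7 were Pmel, Snap25, Nefl, Nefm, Neurog2, Pou4f1 and Isl2, and the 5 were Sox10, Pmp22, Dct, Elavl4 and Th. At equal length 6 of the first 7 were neuronal, and 3 of the second 5 were glial or pigment genes, beside Elavl4 and Th. Among the 28 genes were 7 of neuronal structure, 5 neurogenic factors, 10 glial and 3 pigment genes, and Th, Ret and Gfra3. A difference between roles was not tested.

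**Figure D5:**
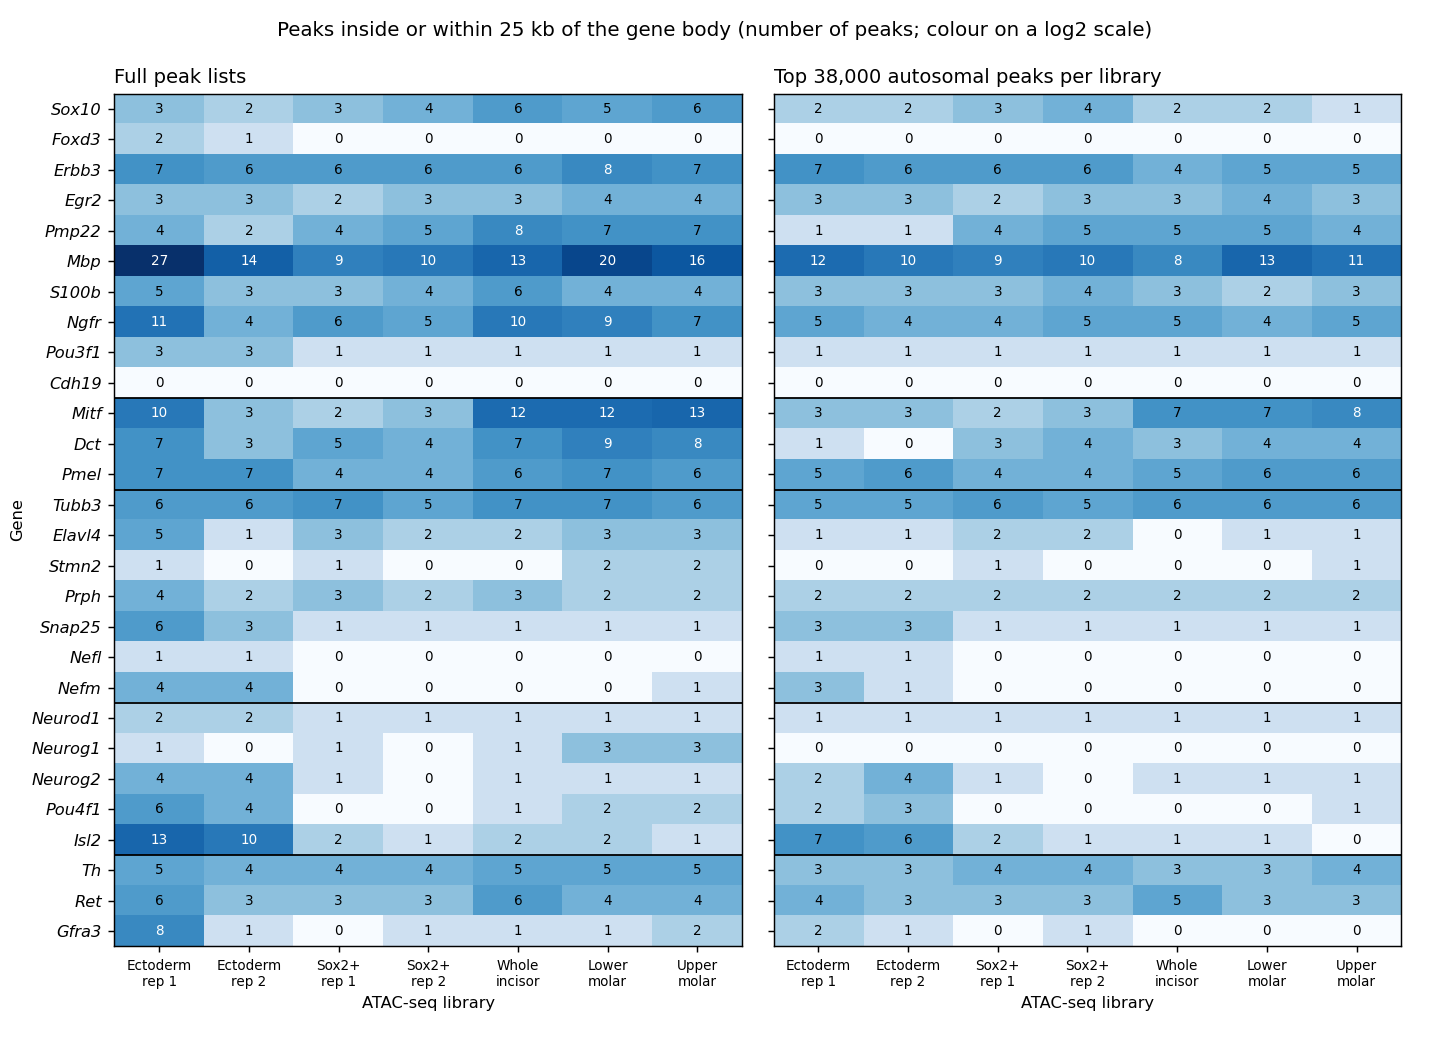
Number of peaks inside or within 25 kb of each of the 28 genes (rows, by role) in the 7 libraries, in full lists and at 38000 peaks per library. At equal length the rows of the neurogenic factors sum to 12 and 14 peaks in ectoderm and 4 and 2 in Sox2+ cells. Isl2 holds 7 and 6 of the ectoderm peaks.

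Regions of a single replicated group were about as common at the members as elsewhere. Of 187 regions from the 4 replicated libraries, 41 (21.9%, beside 22.2% of all regions) were in both ectoderm and neither Sox2+ library, at 17 genes. The reverse held for 11 (5.88%, beside 7.44%), at 8 genes. At equal length the counts were 22 of 117 (18.8%, beside 17.1%) and 15 (12.8%, beside 13.5%). Without ectoderm replicate 2 the 41 became 101, and without Sox2+ replicate 1 or 2 the 11 became 21 or 19. In the 3 teeth, 28 of the 41 ectoderm regions had no peak, and 10 of the 11 Sox2+ regions had one in every tooth. At equal length 16 of 22 ectoderm regions had none, and 7 of 15 Sox2+ regions had one in every tooth. The same splits over all regions of a single replicated group were not computed. These tooth counts are therefore not read as a trait of the members.

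Joined over all 7 libraries, the members had 227 regions at 27 genes, and for 44 of these the nearest gene end belonged to another gene. In all 7 libraries were 38 of them (16.7%, beside 17.2% of all regions), and 29 of 133 at equal length (21.8%, beside 22.9%). In the first ectoderm library alone were 54 (23.8%, beside 16.9%), and 10 at equal length (7.52%, beside 4.46%). In the 3 teeth alone were 12 (5.29%, beside 3.87%), and 3 at equal length (2.26%, beside 1.7%). Pigment genes, with 45 of the 227 regions, held 6 of these 12 tooth regions, and glial genes, with 92 of the 227, held 4. The pigment regions included a Pmel region inside Rab5b, which is not read as a pigment signal. In both molars alone were 12 (5.29%, beside 5.65%), and 6 at equal length (4.51%, beside 4.33%), and pigment genes again held 6 of the 12. These splits by role were not tested.

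The same counts were made for related genes outside the members. Of 30 further neuronal genes, 23 and 21 had a gene-end peak in ectoderm (76.7% and 70%, beside 64.6% and 61.5% of all genes). In Sox2+ cells 12 and 11 had one (40% and 36.7%, beside 56.2% and 55%). In teeth 15 to 16 had one (50% to 53.3%, beside 58.6% to 60.1%). In both ectoderm and neither Sox2+ library were 9 of them (beside 6.01% of all genes), and 4 at equal length (beside 3.45%). Among them were Calca and Scn9a, which encode a sensory neuropeptide and a sodium channel of sensory neurons. In full lists Scn9a also had a gene-end peak in all 3 teeth, and Calca in the upper molar. The reverse held at equal length for Hand2 alone, a factor of sympathetic neurons and of arch mesenchyme. Of 20 further glial genes, 3 were open in both ectoderm and neither Sox2+ library (Gap43, Tfap2a and Gfap), beside 6.01% of all genes. At equal length this held for Tfap2a alone, beside 3.45%. Tfap2a is also a factor of surface ectoderm. Of 12 further pigment genes 7 and 6 had a gene-end peak in ectoderm (58.3% and 50%, beside 64.6% and 61.5% of all genes). In Sox2+ cells 5 and 4 had one (41.7% and 33.3%, beside 56.2% and 55%). In teeth 5 to 6 had one (41.7% to 50%, beside 58.6% to 60.1%). At equal length these counts were 5 and 5, 5 and 4, and 3 to 4 (25% to 41.7%, beside 52.6% to 58.3%). None of the 12 genes was split between the replicated groups. Tyr, Tyrp1 and Oca2, which act in melanin synthesis, had none in any library, and Kit, Mc1r and Rab27a had one in all 7. The peak at the Tubb3 start lay 56 to 109 bp from Tubb3 and 700 to 753 bp from Mc1r in these libraries. It meets the gene-end rule for Mc1r, so the Mc1r count is not read as a pigment signal.

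CpG content differed between starts in a way the peak rule did not use. The RefSeq promoter table held 28 starts of 16 members, with a window of 250 bases before and 50 after each. For 9 starts covered in all 7 libraries, of which 4 share a region at Egr2, the ratio of observed to expected CpG had a median of 0.752 (0.607 to 0.997). For 11 starts covered in some libraries it was 0.606 (0.145 to 1.24), and for 8 covered in none 0.474 (0.158 to 0.837). The median over all 32851 promoters was 0.384. The order of the medians is a description, since ranges overlap and starts of a gene share sequence. Neurod1 and Foxd3 had 0.837 and 0.793 with a start covered in no library, and S100b and Dct had 0.145 and 0.236.

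Short motifs were looked for on both strands of these windows. Windows of nearby starts of a gene overlap, such as those of the Egr2 starts at 67537869, 67537870 and 67537930. The same match can therefore count more than once, and window counts are not read as an excess over all promoters. The SOX core ACAAAG was in 1 of the 28 windows, that of Dct, and in 18.7% of all promoters. The MITF E-boxes CATGTG and CACGTG were in 6 windows of 3 genes, Dct, Egr2 and Foxd3, and in 20.4% of all promoters. In the Dct stretch printed above, ACAAAG began 192 and 141 bases before the start, and CATGTG began 150 bases before it. Its reverse complement CACATG began 232 bases before the start. The POU motif ATGCAAA was in 4 windows of 2 genes, Egr2 and Neurog1, beside 4.63% of all promoters. The bHLH E-box CAGCTG was in 4, at Elavl4, Ngfr and Pou4f1, beside 16.3%. The half-site CAGCACC of the REST element was in 1, at Tubb3, beside 7.14%. A match is a run of letters and not a bound site.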

How the data were processed

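Omni-ATAC peak lists were deposited by the authors, 1 per library, in the narrowPeak layout. The submitters' processing notes name FastQC, Trimmomatic, Bowtie2, deepTools, Genrich and the build mm10; versions, options and read filters are not given in the sources used here. The deposited signal is a peak's area under the significance curve, and the deposited −log10 p is the value the authors' caller gave it. Neither is normalized between libraries, and depth is unknown, so both served only within a library.

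Gene bodies of 20665 autosomal protein-coding genes came from a RefSeq table of GRCm38.p6, the assembly behind mm10. Start sites came from a RefSeq table of promoters, which matched 16 of the 28 genes. Summits within 1 kb of either gene end, and summits inside or within 25 kb of the gene body, were counted in the full autosomal lists and in the 38000 peaks of lowest p per library. Peaks that shared 1 bp were joined into regions, and a region was assigned by its centre. With 2 libraries against 2, no p-value under 0.333 can be reached by an exact two-sided permutation test, so counts are given beside those over all genes.

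All 28 genes are accounted for. Values in each library are given for genes with a gene-end peak in 1 to 6 lists, and for at least 1 region of each gene with a region of 1 replicated group, and of the other marker lists counts are given with up to 3 split genes. Members and lists were chosen with earlier results of these data known. Python 3.11.15, numpy 2.4.6, pandas 2.3.3 and matplotlib 3.10.9 were used, and the scripts were tested on simulated data. The labels name no batch.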

Additional observations from a re-analysis of the deposited data

How the results depend on the processing

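Each of 8 counts was recomputed under its alternatives, 84 values in all, of which 53 stayed within 1.5 times the main count and 31 moved further. No paired analysis was possible because the counts come from no test and the replicate numbers of ectoderm and Sox2+ cells join different tissues. At the 38000 peaks of lowest p, genes with more ectoderm peaks went from 11 to 7, genes with more Sox2+ peaks from 0 to 5, ectoderm regions from 41 to 22, genes open in incisor but not Sox2+ cells from 1 to 0, and in both molars but not incisor from 2 to 1. With peaks chosen by signal, these were 6 genes with more Sox2+ peaks, 23 ectoderm regions and 0 incisor genes. With the 50% of lowest p they were 2 genes, 23 ectoderm regions, 6 Sox2+ regions and 0 incisor genes. With windows of 2.5 and 50 kb there were 1 gene with more Sox2+ peaks, 62 ectoderm regions, 19 Sox2+ regions and 2 incisor genes. At the RefSeq start, for the 16 genes with one, 2 were open in ectoderm alone and 0 in both molars but not the incisor. This start with 38000 peaks was chosen after seeing the data and gave 1 in ectoderm alone, 1 in Sox2+ cells alone, 0 in incisor and 0 in molars. Leaving out 1 replicate gave 6 to 9 genes open in ectoderm alone, 0 to 1 in Sox2+ cells alone, 11 to 21 with more ectoderm peaks, 0 to 5 with more Sox2+ peaks, 44 to 101 ectoderm regions, 11 to 21 Sox2+ regions, and 1 to 2 incisor genes. The tooth libraries have no replicate, depth is unknown, and a missing peak may be a site under the caller's limit. The cause of each change was not tested.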
